A study of Arabidopsis thaliana with 40 samples.

Results

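Autoinhibited calcium ATPases (ACA) are the calmodulin-activated calcium pumps of Arabidopsis. The histone mark H3K9/14ac, acetylated lysines 9 and 14 of histone H3 as found at active genes, was followed here at 6 of their genes: ACA1 (AT1G27770), ACA2 (AT4G37640), ACA4 (AT2G41560), ACA8 (AT5G57110), ACA10 (AT4G29900) and ACA11 (AT3G57330). They were chosen by locus. A region of the deposited differential-binding tables was taken as theirs when it overlapped the gene, or else lay within 1 kb. This gave 8 of 13362 regions, and all 8 overlapped their gene. ACA1, ACA2, ACA8 and ACA10 had 1 region each, and ACA4 and ACA11 had 2 each. The other 4 ACA genes listed, ACA7, ACA9, ACA12 and ACA13, had no region within 1 kb. The genes were picked with results of these tables already known, so their folds over water and differences between the times are given as a description.

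The study mapped H3K9/14ac by chromatin immunoprecipitation and sequencing (ChIP-seq) in seedlings of the ecotype Col-0, to find acetylation sites that respond to nitric oxide. The seedlings were 7 days old and grew in liquid medium with 1% sucrose and 10 h of light a day. They received water (the solvent control), 250 µM S-nitrosoglutathione (GSNO, a nitric oxide donor), 250 µM glutathione (GSH, which lacks the nitroso group), 250 µM GSNO with 500 µM cPTIO (a nitric oxide scavenger), or 5 µM trichostatin A (TSA, which blocks histone deacetylases). Seedlings were treated for 3 h or 16 h, and each group had 2 ChIP libraries by its labels. Whole seedlings were used, so a change in the number of cells that carry the mark and a change in the mark per cell cannot be told apart.

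Calcium ions carry signals in plant cells, and pumps such as the ACA proteins end a signal by moving calcium out of the cytosol at the cost of ATP. Their N-terminal domain blocks the pump until calmodulin, the general calcium sensor, binds it. ACA8 and ACA10 sit in the plasma membrane, ACA4 and ACA11 in the membrane of the vacuole and ACA2 in the endoplasmic reticulum, while ACA1 was first described in the plastid envelope. ACA8 and ACA10 are known partners of the immune receptor FLS2, and loss of ACA4 and ACA11 together is known to cause salicylic acid-dependent lesions.

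Reads per library were recovered from the group means in the tables. This gave 17 libraries, with 1590342 to 4053207 reads in the regions and 2 libraries for each group but 1. The tables of 16 h rested on a single water library, the shallowest of the 17. Recovered libraries carry no replicate number, and in each pair "a" names the shallower and "b" the deeper. TSA at 16 h had peak lists only. Replicate 2 of water at 16 h (1199 peaks) and of TSA at 16 h (385 peaks) had far shorter lists than the other 18 libraries (6030 to 14758 peaks), and neither had a peak at any of the 6 genes. Levels below are reads scaled to a common library size, given per kb of region so that genes can be compared.

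ACA8, a pump of the plasma membrane, had less H3K9/14ac at 16 h than at 3 h in these libraries. The difference was under the limma threshold with GSH and with GSNO and cPTIO, and not with GSNO. In water the 16 h side was 1 library. With the genes picked as above, this is a description. The sample labels do not give the hour of harvest, so hours of treatment and time of day cannot be told apart. The ACA8 region lay on chromosome 5, 23116285 to 23117479, inside the gene. At 3 h it had 212 and 327 reads in the water libraries, 167 and 432 with GSNO, 265 and 387 with GSH, 189 and 311 with GSNO and cPTIO, and 245 and 188 with TSA. At 16 h it had 6 reads in the water library, 71 and 210 with GSNO, 76 and 136 with GSH, and 40 and 33 with GSNO and cPTIO. Every library of 16 h lay below every library of 3 h once scaled, and the share of all regions that did so was not counted.

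Per kb, the ACA8 region stood at mean levels of 202 to 231 scaled reads in the 5 groups of 3 h. Their ranges overlapped, from 173.5 (TSA, library b) to 249 (water, library a), so no order among them is given. At 16 h the means were 107 scaled reads per kb with GSNO (libraries 88.4 and 125), 69.3 with GSH (58.0 and 80.6), 44.4 with GSNO and cPTIO (52.9 and 35.8) and 8.35 in the water library. In these libraries the 4 groups did not overlap, in the order GSNO, GSH, GSNO with cPTIO and water. The share of all regions where groups separated like this was not counted, and water was a lone library. In the direct comparisons below, GSNO did not pass the limma threshold against GSH or against GSNO with cPTIO. No ranking of the treatments is therefore read from this order.

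**Figure D1:**
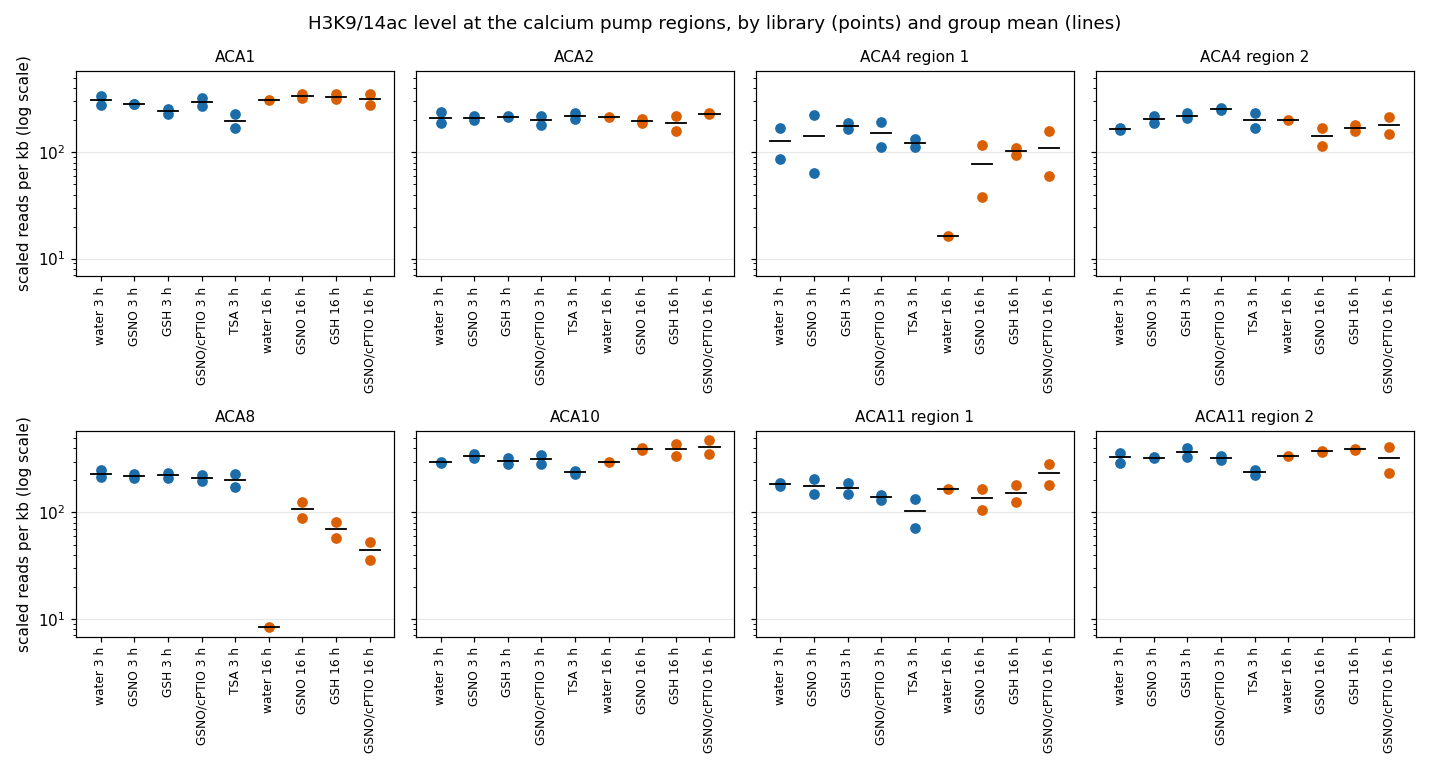
H3K9/14ac level (scaled reads per kb, log scale) at the 8 regions of the 6 calcium pump genes, by treatment and time. Points are libraries (blue 3 h, orange 16 h) and lines are group means; the lone water library of 16 h stood at 8.35 for ACA8 and 16.3 for region 1 of ACA4, while the other regions kept within 71.8 to 476.

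Against water of the same time, the authors' deposited table gave ACA8 a log2 fold of 3.67 with GSNO at 16 h (12.8-fold, FDR = 7.08e-08). ACA8 was the 1 member region called there, and 0.935% of all regions were called (FDR under 0.05). In the authors' deposited table for GSH at 16 h the fold was 3.06 on the log2 scale (FDR = 1.43e-06). With GSNO and cPTIO at 16 h it was 2.41 in the authors' deposited table (FDR = 0.0491). Of the 13362 regions, 14 had a larger fold than ACA8 with GSNO, 24 with GSH and 34 with GSNO and cPTIO.

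All 3 folds rest on the 6 reads of the lone water library, whose exact Poisson interval (95%, counting error only) runs from 2.20 to 13.1 reads. The water library had 1590342 reads in regions. At ACA8, library a of GSNO with cPTIO (1686093 reads in regions) held 40 reads and library a of GSNO (1773594 reads) held 71. These libraries differ from water in treatment as well, and the part of depth in the 6 reads was not tested. With limma on the libraries of the 2 groups, the log2 fold was 3.52 ± 0.84 (SE; adjusted p = 0.0311) with GSNO, 2.92 ± 0.87 (adjusted p = 0.0416) with GSH and 2.22 ± 1.42 (adjusted p = 0.946) with GSNO and cPTIO. That limma fit called 0.135%, 2.35% and 0.0% of all regions in these 3 comparisons. With all 17 libraries in 1 limma fit, chosen after seeing the data, the log2 folds of ACA8 were 3.53 with GSNO, 2.91 with GSH and 2.27 with GSNO and cPTIO. That fit takes the spread for the lone water library from the other groups, so no call is read from it here.

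The difference of ACA8 between the times was also fitted in each treatment, with all 17 libraries in 1 limma fit. The deposited tables hold the group means of both times and were known when the genes were picked, so these values are a description. In the treatments, whose values hold no water library, ACA8 fell by 1.70 on the log2 scale with GSH (SE 0.26, limma adjusted p = 0.00172) and by 2.26 with GSNO and cPTIO (SE 0.26, limma adjusted p = 2.34e-05). With GSNO the log2 difference was -1.05 ± 0.26 (SE, limma adjusted p = 0.0559), with a 95% interval of -1.59 to -0.51, and it did not pass the threshold. In water ACA8 fell by 4.65 (SE 0.32, limma adjusted p = 4.53e-09), which again rests on the lone library of 16 h. ACA8 was the 1 member region called in 3 of these comparisons and none was called with GSNO, where limma gave 1 at an unadjusted p under 0.05. The shares of all regions called were 1.87% in water, 0.883% with GSNO, 0.494% with GSH and 3.44% with GSNO and cPTIO. The call with GSH was lost without GSH library b of 3 h (limma adjusted p = 0.0788) or without GSH library a of 16 h (limma adjusted p = 0.132). That with GSNO was gained without GSNO library b of 16 h (limma adjusted p = 0.0373).

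GSNO was also set against each of its controls directly, which needs no water library. At 16 h the log2 level of ACA8 was 0.61 ± 0.26 above GSH in the GSNO group (SE; adjusted p = 1.00 in limma), with an interval of 0.07 to 1.16. It was 1.26 ± 0.26 above GSNO with cPTIO (limma adjusted p = 0.073), with an interval of 0.71 to 1.80. Neither difference passed the threshold, and leaving out library a of GSNO with cPTIO brought the second to 1.53 (limma adjusted p = 0.0227). At 3 h the same differences were -0.04 (interval -0.58 to 0.51) and 0.05 (interval -0.49 to 0.59). Of the 8 regions, limma called none in any of these 4 direct comparisons. The counts at an unadjusted p under 0.05 were 0 at 3 h against either control, 1 against GSH at 16 h and 2 against GSNO with cPTIO at 16 h. Over all regions the shares called were 0.0% in 3 of them and 0.0225% for GSNO against GSNO with cPTIO at 16 h.

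The response of ACA8 over water at 16 h was also set against that at 3 h. On the log2 scale the difference was 3.602 ± 0.41 (SE, limma) for GSNO, 2.95 ± 0.41 for GSH and 2.40 ± 0.41 for GSNO with cPTIO. These values are a description: they hold the folds over water of 16 h that were known when the genes were picked, and the water side of 16 h is 1 library with 6 reads. ACA8 was the 1 member region past the limma threshold in each, where 0.12%, 0.12% and 0.18% of all regions were, and no difference in response is read from it.

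**Figure D2:**
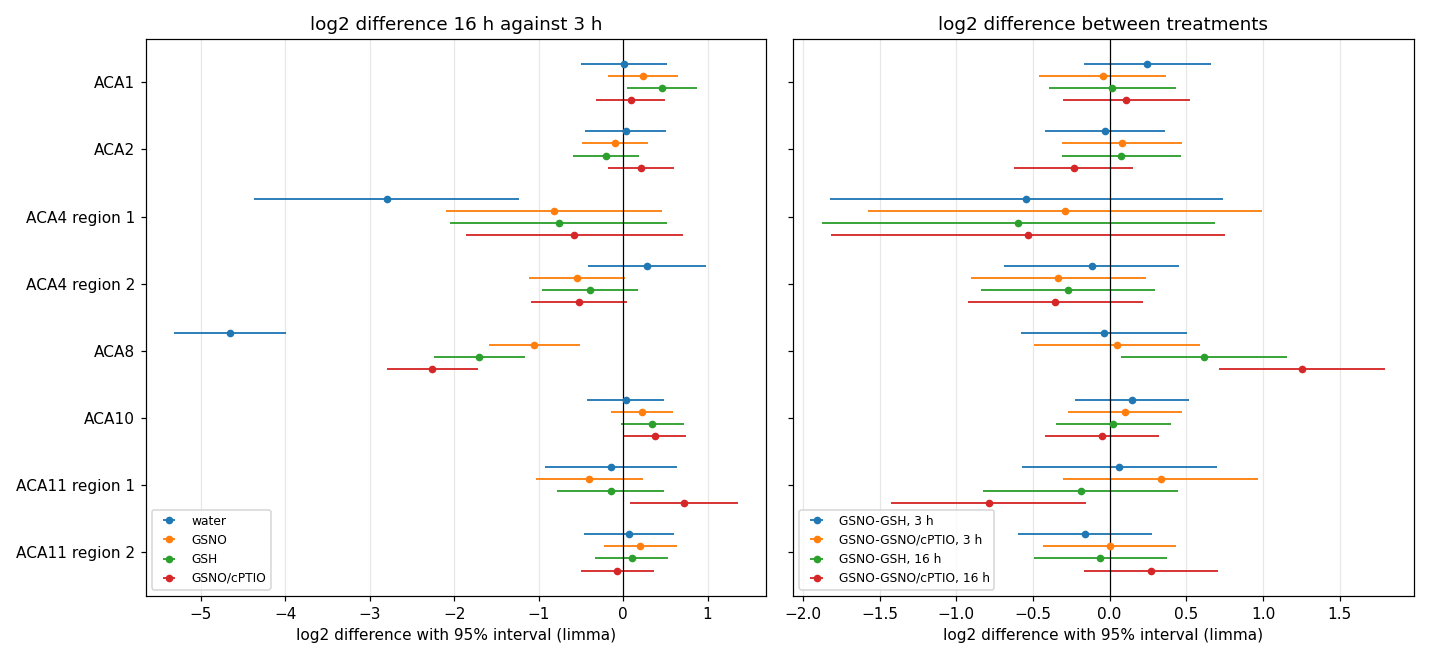
Log2 differences with 95% intervals (limma, 17 libraries in 1 fit) at the 8 regions. Left, 16 h against 3 h within water and each treatment; right, GSNO against GSH and against GSNO with cPTIO at each time. ACA8 lay at -4.65 (water) to -1.05 (GSNO) on the left, and at 0.61 and 1.26 in the direct comparisons of 16 h.

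The peak lists, called for each library by the authors, also differed by time at ACA8. Most come from the libraries whose reads are given above, so they are no separate support. All 10 libraries of 3 h had a peak inside the gene, each within 23116505 to 23117454. Of the 10 libraries of 16 h, 1 had a peak there, TSA replicate 1, with peaks at 23116286 to 23116769 and 23117018 to 23117479. Lists of 16 h without a peak there held from 385 (TSA replicate 2) to 13803 peaks (GSH replicate 1). The share of all genes with such a split was not counted. In 5 further libraries of 16 h, both of GSNO, both of GSH and replicate 1 of GSNO with cPTIO, a peak within 1 kb lay outside ACA8, at the neighbouring gene AT5G57100, between 23107907 and 23108608. Peaks within 1 kb were looked for only where none lay inside the gene. The neighbour was therefore not examined in the libraries of 3 h, and no difference between the times is read there.

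ACA10, the other pump of the plasma membrane, had one of the highest levels among the 8 regions and did not pass the test in any comparison. Its region (chromosome 4, 14618726 to 14619449) also overlapped AT4G08245, a long non-coding RNA gene, and reads of the pair cannot be told apart. Its mean level over the 17 libraries was 334 scaled reads per kb, above 82.4% of all regions. It had 149 and 279 reads in water and 157 and 152 with TSA at 3 h. At 16 h it had 131 in water, 195 and 395 with GSNO, 350 and 348 with GSH, and 218 and 196 with GSNO and cPTIO. The scaled levels of the 6 treated libraries of 16 h, 341 to 476 per kb, lay above the single water library at 301. The share of all regions where this held was not counted, so no rise is read from it. The folds in the authors' deposited tables of 16 h were 0.39, 0.38 and 0.46 on the log2 scale, with FDRs of 0.997, 0.673 and 1.00. Against GSH at 16 h the GSNO group differed by 0.03 on the log2 scale (limma, interval -0.35 to 0.40), and against GSNO with cPTIO by -0.05 (interval -0.42 to 0.32). Peaks lay at ACA10 in 18 of 20 libraries, all but replicate 2 of water and of TSA at 16 h.

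ACA4, a vacuolar pump, carried 2 regions 400 bp apart, which were not tested against each other. Region 1 (chromosome 2, 17335425 to 17336239) was a weak site, with a mean level of 120 scaled reads per kb, above 0.861% of all regions. At 3 h it had 50 and 177 reads in water, 35 and 286 with GSNO, 139 and 209 with GSH, 64 and 206 with GSNO and cPTIO, and 81 and 98 with TSA. At 16 h it had 8 reads in water, 21 and 135 with GSNO, 85 and 127 with GSH, and 31 and 100 with GSNO and cPTIO. The water library of 16 h was the lowest, and the treated groups of 16 h overlapped one another.

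Folds over water at ACA4 region 1 were large at 16 h in the authors' deposited tables. They were 2.66 on the log2 scale with GSH (FDR = 6.42e-06), 2.75 with GSNO and cPTIO (FDR = 0.0233) and, not called, 2.26 with GSNO (FDR = 0.055). This made 2 member regions called with GSH and 2 with GSNO and cPTIO at 16 h, ACA8 and ACA4 region 1 in both, where 2.16% and 0.561% of all regions were called in the authors' deposited tables. In limma on the libraries of the 2 groups, the fold with GSH was 2.57 ± 0.78 (SE; adjusted p = 0.0445), and those with GSNO (adjusted p = 0.783) and with GSNO and cPTIO (adjusted p = 0.946) did not pass. That limma fit called 0 of the 8 with GSNO and cPTIO, and 1 at an unadjusted p under 0.05. With all 17 libraries in 1 limma fit none of the 3 passed (adjusted p = 0.154 to 0.45). The 8 reads in water have an exact Poisson interval (counting error only) of 3.45 to 15.8 reads.

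Sequencing depth moved with the level of ACA4 region 1. After scaling, the deeper library was the higher one in 8 of 8 pairs, which held for 1.92% of all regions, and the median log2 ratio of deeper to shallower was 0.88. At ACA8 the deeper library was higher in 4 of 8 pairs. The part of depth in the folds of ACA4 region 1 was not tested. Between the times, region 1 was not called: the log2 difference was -2.80 ± 0.76 (SE; limma adjusted p = 0.0574) in water and -0.82 to -0.58 in the 3 treatments (limma adjusted p at least 0.71).

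Region 2 of ACA4 (chromosome 2, 17336640 to 17337331) did not share the low water value of 16 h. It had 83 reads in that library, against 53 and 165 with GSNO, 119 and 176 with GSH, and 65 and 114 with GSNO and cPTIO. At 3 h it had 79 and 149 reads in water and 122 and 238 with GSNO and cPTIO, its highest scaled levels. Folds over water ran from -0.49 (GSNO, 16 h) to 0.64 (GSNO with cPTIO, 3 h) on the log2 scale in the authors' deposited tables, and none was called. Peaks over region 1 were found in 5 of 10 libraries of 3 h and 1 of 10 at 16 h, and over region 2 in 8 and 5.

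ACA11, the second vacuolar pump, also had 2 regions, 568 bp apart. Region 1 (chromosome 3, 21214401 to 21215310) was lower with TSA than in water at 3 h, relative to the other regions. It had 58 and 111 reads in the TSA libraries and 115 and 222 in those of water, and the scaled levels of 71.8 and 134.5 per kb lay below 178 and 190. The log2 fold was -0.84 in the authors' deposited table (FDR = 0.0215). In limma on the 4 libraries it was -0.90 ± 0.31 (SE; adjusted p = 0.0327). The call was lost without TSA library a (-0.45, limma adjusted p = 0.439), water library a (-0.95, adjusted p = 0.0553) or water library b (-0.86, adjusted p = 0.0557). With all 17 libraries in 1 limma fit the adjusted p was 0.0509. At 16 h the region had 91 reads in water, 65 and 211 with GSNO, 126 and 232 with GSH, and 166 and 128 with GSNO and cPTIO. GSNO was -0.79 ± 0.31 against GSNO with cPTIO there (SE; limma adjusted p = 0.413), with an interval of -1.42 to -0.15.

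Region 2 of ACA11 (chromosome 3, 21215879 to 21216489) had a mean level of 335 scaled reads per kb, next to that of ACA10. At 3 h its reads were 137 and 125 with TSA, and 128 and 285 in water. The TSA levels of 253 and 226 per kb lay below the water levels of 294.5 and 364, and the authors' deposited table gave a log2 fold of -0.47 (FDR = 0.126). Its other folds over water lay between -0.09 and 0.19 on the log2 scale in the authors' deposited tables.

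ACA1 was the second locus that was lower with TSA, relative to the other regions. Its region (chromosome 1, 9675483 to 9676140) had 98 and 135 reads with TSA at 3 h and 159 and 233 in water. Scaled, the TSA libraries stood at 168 and 226 per kb and the water libraries at 340 and 276. The log2 fold was -0.65 in the authors' deposited table (FDR = 0.0477), close to the threshold. In limma on the 4 libraries it was -0.65 ± 0.23 (SE; adjusted p = 0.0373). The call was lost without TSA library a (-0.43, limma adjusted p = 0.339), water library a (-0.50, adjusted p = 0.208) or TSA library b (-0.86, adjusted p = 0.0507). In the peak lists 16 of 20 libraries had a peak at ACA1, and both TSA lists of 3 h had none. These lists come from the same TSA libraries as the reads and are no separate support. The share of all genes without a peak in both was not counted. At 16 h the region had 122 reads in water, 143 and 326 with GSNO, 253 and 294 with GSH, and 115 and 180 with GSNO and cPTIO, and its folds over water were 0.13, 0.12 and 0.03 on the log2 scale in the authors' deposited tables.

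With TSA at 3 h, 2 of the 8 regions were thus called lower and 0 higher in the authors' deposited table, where 20.8% of all regions were called and 10.1% were called lower. The limma fit on the same libraries called the same 2 and 22.5% of all regions. The median log2 fold of the 8 was -0.26, against 0.00046 for all regions. Scaling sets levels relative to the other regions of a library, so a change shared by all regions would not show. The TSA lists of 3 h, which lacked a peak at ACA1, held 13672 and 11119 peaks.

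ACA2, the pump of the endoplasmic reticulum, had the narrowest range of the 8 regions as a ratio of its highest to its lowest level. Its region (chromosome 4, 17685890 to 17686899) ranged from 158 to 236 scaled reads per kb over the 17 libraries. It had 134 and 306 reads in water at 3 h and 130 at 16 h. With GSNO it had 135 and 352 at 3 h and 127 and 292 at 16 h. Folds over water lay between -0.18 (GSH, 16 h) and 0.11 (GSNO with cPTIO, 16 h) on the log2 scale in the authors' deposited tables, none called. The limma intervals of GSNO against GSH and against GSNO with cPTIO, at both times, lay within -0.62 to 0.47.

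After 3 h with GSNO, GSH or GSNO and cPTIO, none of the 8 regions was called in the authors' deposited tables, which called 0.0449%, 0.105% and 0.0374% of all regions. At an unadjusted p under 0.05 there were 0, 0 and 1 of the 8, and limma on the same libraries also called none of them, with 0, 0 and 1 at an unadjusted p under 0.05. Without water library b, which left 1 water library, the limma log2 fold of ACA4 region 1 with GSH was 1.01. It was 0.53 with both water libraries, and no response of the region is read from it. The folds in the authors' deposited tables ran from -0.41 (ACA11 region 1) to 0.64 (ACA4 region 2), both with GSNO and cPTIO. For GSNO at 3 h the limma intervals of all 8 regions lay within a log2 difference of 1 on either side.

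**Figure D3:**
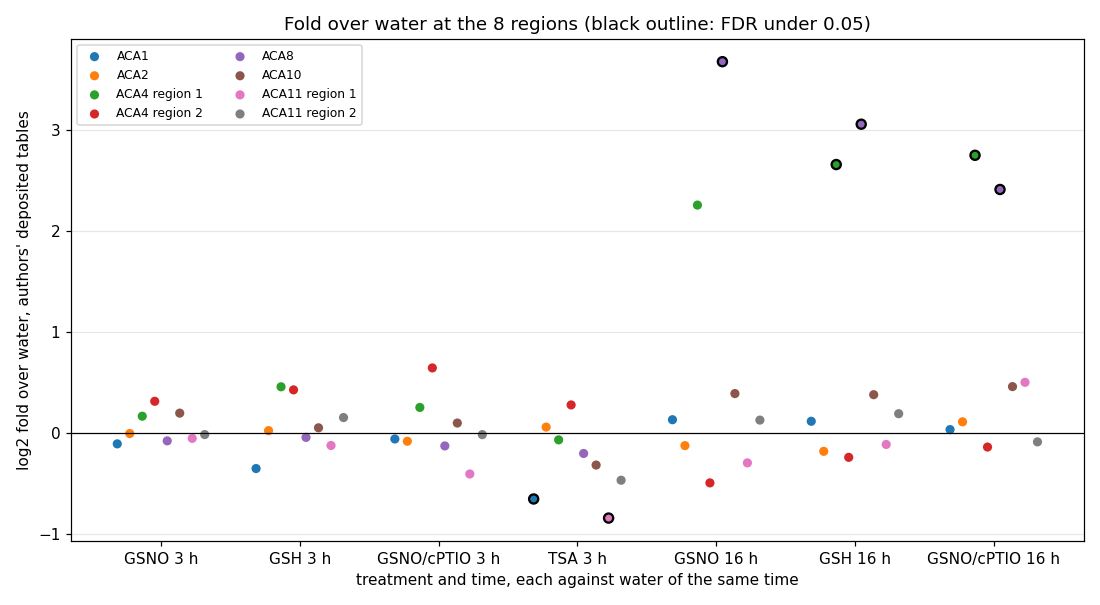
Log2 folds over water of the same time at the 8 regions in the authors' deposited tables, for 4 treatments at 3 h and 3 at 16 h; outlined points had an FDR under 0.05. At 16 h ACA8 (3.67, 3.06, 2.41) and ACA4 region 1 (2.26, 2.66, 2.75) stand above the rest, and with TSA ACA1 (-0.65) and ACA11 region 1 (-0.84) are outlined.

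The 3 comparisons of 16 h share the water library, so their folds are not independent of one another. The median log2 fold of the 8 regions was 0.13 with GSNO, 0.15 with GSH and 0.28 with GSNO and cPTIO, against -0.0041, -0.0055 and 0.0033 over all regions in the authors' deposited tables. Without ACA8 and ACA4 region 1, the other 6 regions lay between -0.49 and 0.50 in the authors' deposited tables and none was called.

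Summed over 20 libraries and 6 genes, a peak lay inside or within 1 kb in 95 of 120 cases. These count ACA8 in 16 libraries, of which 11 had the peak inside the gene and the rest at AT5G57100. Water replicate 1 of 16 h (6837 peaks) had a peak at ACA1, ACA10 and ACA11. TSA replicate 1 of 16 h (14758 peaks) had peaks at all 6 genes. Of the ACA genes without a region, ACA12 had 1 peak inside the gene, in replicate 2 of GSNO with cPTIO at 3 h (chromosome 3, 23409680 to 23410155), and ACA7, ACA9 and ACA13 had none inside the gene.

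**Figure D4:**
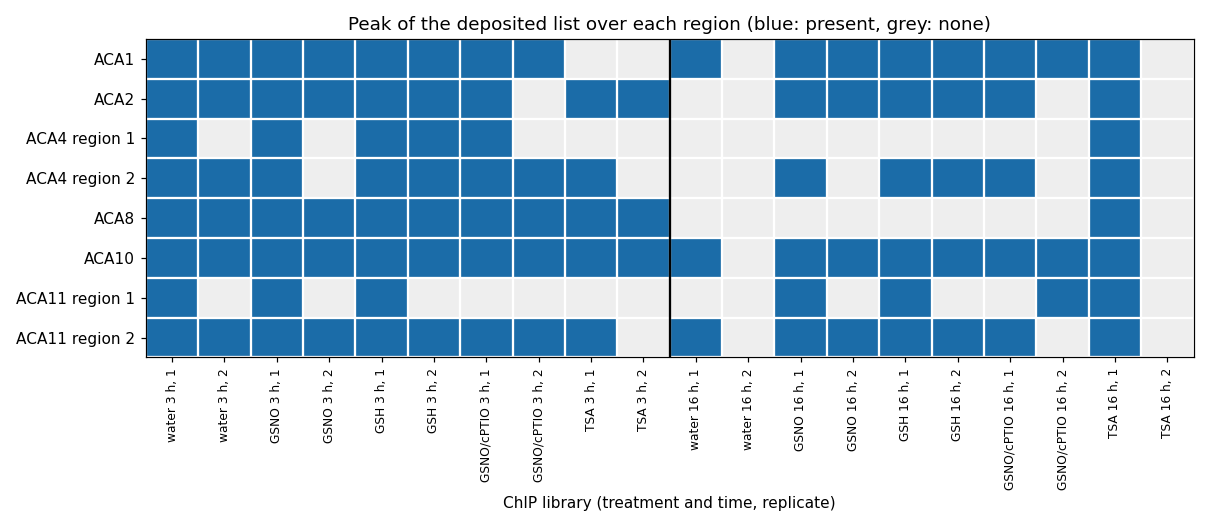
Presence of a peak over each of the 8 regions in the 20 deposited peak lists (blue, present; grey, none), with 3 h left and 16 h right of the line. ACA8 has a peak in 10 of 10 lists of 3 h and 1 of 10 of 16 h, and ACA1 lacks one in both TSA lists of 3 h.

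Levels of the 8 regions varied over the libraries in different ways. Of the pairs among the 8 regions, ACA8 and ACA4 region 1 had the highest correlation of log2 levels (Pearson r = 0.68 over 17 libraries), and ACA4 region 2 with ACA10 the lowest (r = -0.44). These libraries share treatment, time and depth, so the values are descriptive. Outside the family, the region most like ACA8 lay at BBX8, a B-box zinc finger gene (chromosome 5, 19563002 to 19563681; r = 0.95 over 17 libraries). The closest for ACA10 was at RPL16B, a ribosomal protein gene (r = 0.90), for ACA1 at AT2G25460 (r = 0.90) and for ACA11 region 2 at AT1G26920 (r = 0.88). For ACA4 region 2 it was at DWA3 (r = 0.79) and for ACA2 at MOT1 (r = 0.75).

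Only 26 of 13362 regions had 6 reads or fewer in the water library of 16 h, and 7 of these had at least 100 reads in both water libraries of 3 h. Besides ACA8 (6 reads, against 212 and 327), these were at COL9 and BBX8, both B-box genes, COR27, a cold-regulated gene of the clock, AT4G33980, AT2G15830 and AT1G17665. COL9 had 1 read against 199 and 392, COR27 1 against 104 and 208, and BBX8 1 against 113 and 268. This selection was made after the values were seen and is a description.

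Other genes of calcium transport and signalling, together with the plasma membrane proton pump genes AHA1 and AHA2, had 36 linked regions. With TSA at 3 h 7 of them (19.4%) were called in the authors' deposited table, near the 20.8% of all regions. All 4 ER-type calcium pumps had a region, and 1 was called, ECA4, higher with TSA at 3 h (0.74 on the log2 scale in the authors' deposited table). Of 6 calcium/proton exchangers 4 had a region, and the 1 called (with TSA, 0.74 in the authors' deposited table) was linked to CAX4 from within 1 kb and lay inside its neighbour TAAC. Of 13 calcium-permeable channels 10 had a region and 11 regions were linked, with 1 called, CNGC2, lower with TSA (-0.79 in the authors' deposited table). All 7 calmodulin genes, whose proteins activate the ACA pumps, had a region, and 1, CAM1, was lower with TSA (-0.67 in the authors' deposited table).

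Of 8 genes that decode calcium signals, 7 had a region. With TSA at 3 h the kinase gene CPK28 (-0.82) and the transcription factor gene CAMTA3 (-0.86) were lower and CAMTA1 (0.68) was higher in the authors' deposited table. CAMTA1 was also higher with GSH at 16 h (1.81 in the authors' deposited table, FDR = 0.000178). None of the regions of the plasma membrane proton pumps AHA1 and AHA2 was called. The region of CAMTA1 was the 1 call among the 36 regions with GSH at 16 h (2.78%, against 2.16% of all regions). None was called in the authors' deposited tables of GSNO (0.935% of all regions) or GSNO with cPTIO (0.561%) at 16 h.

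Regions lay at all 3 shoot markers and at 2 of 3 root markers chosen to check the tissue. The stomatal lineage gene TMM was higher after TSA (0.73, the authors' deposited table), where 20.8% of all regions were called, and no other marker was called. With TSA the folds of the 3 shoot markers ran from -0.31 to 0.73 on the log2 scale, with a median of 0.07. No shift of tissue is read from the TMM call. The part of tissue in the TSA values of ACA1 and ACA11 was not tested.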

How the data were processed

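H3K9/14ac ChIP-seq libraries of 5 treatments at 2 times were grouped by title. The authors deposited 7 tables with the log2 group mean, log2 fold, p-value and FDR of 13362 regions, and 20 peak lists whose score column is 0 throughout. DiffBind, edgeR, TAIR10 and TAIR9 are named per the submitters' processing notes; the aligner, peak caller and filters on reads were not given in the sources used here. The members and lists were chosen with earlier results of these data known. Gene spans for linking came from the RefSeq table (assembly TAIR10.1), which matched 56 of 56 listed genes; strand, exons and start sites were not used here, nor were promoter sequences or motifs.

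The deposited log2 means were whole reads times 1 factor per library, and 100% of regions came out whole (tolerance 1e-08); 17 libraries were recovered, and replicate numbers were not. Whether input reads were subtracted is not given; the lowest value was 1 read. For treatment against water the deposited fold and FDR (under 0.05) were the main test. Other comparisons used limma 3.58.1 (R 4.3.3) on log2(TMM-scaled reads + 1) with a trend, two-sided, Benjamini-Hochberg adjusted over 13362 regions, with all 17 libraries; folds on this scale understate changes of low regions. For the single water library of 16 h the spread of the other groups was used. P-values reflect the spread of 2 libraries per group, called biological replicates in the series text. The limma script was tested on simulated reads. Alternatives were limma for the deposited test, other thresholds, equal medians, no trend, a pseudocount of 5, a minimum mean of 20 reads, leaving out each library, peaks inside the gene only and, of each peak list, the peaks at or above its median width. In the peak lists 14 entries spanning a whole chromosome were left out; entries up to 100 kb were kept. Named genes were all members, listed genes called in any of the 7 tables, and the region most like each locus's strongest region. The 20 input libraries were not analysed here.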

Additional observations from a re-analysis of the deposited data

Results flagged for a closer look

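At ACA8 the contrast of the response over water at 16 h with that at 3 h passed the limma threshold (17 libraries). The response was higher at 16 h by 3.602 with GSNO, 2.95 with GSH and 2.40 with GSNO and cPTIO on the log2 scale. All 3 hold folds that were known when the genes were picked and rest on 1 water library of 16 h, so they do not show a difference in response.

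TSA at 16 h entered no comparison, and its peak lists held peaks at 3 genes where both water lists of 16 h had none. Peaks inside the gene numbered 2 at ACA8, 2 at ACA4 and 1 at ACA2, all in replicate 1 (14758 peaks), while replicate 2 had 385 peaks. The water lists held 6837 and 1199 peaks. A missing peak is not missing signal: the recovered water library of 16 h had 214 scaled reads per kb at ACA2 and 199.6 at region 2 of ACA4.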

How the results depend on the processing

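No paired analysis was possible because the recovered libraries carry no replicate numbers. The lone water library of 16 h could not be left out, which limits every comparison with it, and folds at 6 or 8 reads move with the pseudocount. Counts below are of the 8 regions. With TSA at 3 h (2 called) an FDR under 0.01 gave 0, limma without a trend 0 and limma with 17 libraries in 1 fit 1. For GSNO at 16 h (1 called) an FDR under 0.10 gave 2 and limma with regions of at least 20 reads 0. For GSH at 16 h (2 called) limma with a pseudocount of 5 gave 0, with at least 20 reads 0 and with 17 libraries 1. For GSNO with cPTIO at 16 h (2 called) an FDR under 0.01 gave 0, limma gave 0 under each of 5 settings, and 17 libraries gave 1. An adjusted p under 0.10 gave 1 for GSNO against GSNO with cPTIO at 16 h and for GSNO at 16 h against 3 h, and 2 for water at 16 h against 3 h. A pseudocount of 5 gave 1 for GSNO at 16 h against 3 h. Peaks at or above their list's median width lay inside or within 1 kb of the genes in 59 cases in place of 95. The cause of these moves was not tested.

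Leaving out 1 library at a time gave 0 to 1 calls for GSH and for TSA against water at 3 h, for GSNO against GSNO with cPTIO at 16 h, for GSNO and for GSH at 16 h against 3 h, and for the response difference of GSNO with cPTIO. It gave 1 in each fit for each of the 3 treatments of 16 h over water, where the spread of all groups was used. The fit with 17 libraries, the pooled spread and the settings for the response differences were chosen after seeing the data. With GSH at 3 h the region concerned was ACA4 region 1, in a fit left with 1 water library, so nothing about that region is read from it.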
